A study of Mus musculus with 5 samples.

Results

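Natural killer (NK) cells of the mouse cortex were chosen by a gate on the deposited counts: 89 of 58411 barcodes that passed a quality filter met it. The gate took all 5 libraries and kept barcodes with at least 500 unique molecular identifiers (UMIs, counts of captured RNA molecules), at least 200 detected genes and at most 20% of UMIs from mitochondrial genes. It then required at least 1 UMI of 2 or more of the 6 genes Ncr1, Klrb1c, Klre1, Klra8, Eomes and Gzma, 0 UMIs of the T cell receptor complex genes Cd3d, Cd3e and Cd3g and of the B cell gene Cd79a, and under 0.2% of UMIs from C1qa, C1qb and C1qc together, genes of microglia and macrophages. Because those values selected the members, the levels of the gate genes are given as a description only.

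The study profiled single cells of C57BL/6J mouse cortex with the 10x Genomics Chromium 3′ v3 kit, in 1 library from sham animals and 1 library each from the injury site 1, 3, 7 and 14 days after traumatic brain injury (TBI). Every library was made the same way: cortical tissue was minced, digested with papain and DNase I, passed through a strainer and cleared of debris on Percoll. Each group has 1 library and the labels do not say how many animals a library holds, so no difference between time points could be tested. All intervals below are 95% intervals that cover counting error only.

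NK cells are innate lymphocytes that kill stressed, infected or transformed cells without a rearranged antigen receptor. They weigh signals from activating receptors, such as NKp46 (Ncr1) and NKG2D (Klrk1), against inhibitory receptors for MHC class I, in the mouse chiefly the Ly49 proteins (Klra genes) and the CD94 and NKG2A pair (Klrd1 and Klrc1), and they kill with perforin and granzymes and secrete interferon gamma and chemokines. Very few NK cells are found in healthy brain tissue, and they are known to enter it after injury. Innate lymphoid cells of type 1 (ILC1s) share Ncr1 and Klrb1c with NK cells but as a rule lack Eomes and Ly49 receptors.

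The promoters of Ncr1, Gzma and Prf1 are shown because these genes carry much of what follows: Ncr1 encodes the receptor by which NK cells are commonly defined, Gzma was the most abundant gate gene, and Prf1, the perforin gene, lay outside the gate. The sequences are the 250 bases before the RefSeq start, build GRCm38.p6, 5′ to 3′ on the gene's strand, at chr7:4337465-4337714 (plus), chr13:113100982-113101231 (minus) and chr10:61297586-61297835 (plus). Capitals mark the core of RUNX factor sites (TGTGGT or ACCACA) and a short T-box site (GTGTGA or TCACAC); RUNX3 and the T-box factors T-bet and Eomes are regulators of NK cell development.
Ncr1: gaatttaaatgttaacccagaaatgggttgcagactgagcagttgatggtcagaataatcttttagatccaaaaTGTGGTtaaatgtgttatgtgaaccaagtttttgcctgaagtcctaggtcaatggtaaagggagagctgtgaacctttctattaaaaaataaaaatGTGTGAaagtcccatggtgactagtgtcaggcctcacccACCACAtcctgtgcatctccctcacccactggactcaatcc
Gzma: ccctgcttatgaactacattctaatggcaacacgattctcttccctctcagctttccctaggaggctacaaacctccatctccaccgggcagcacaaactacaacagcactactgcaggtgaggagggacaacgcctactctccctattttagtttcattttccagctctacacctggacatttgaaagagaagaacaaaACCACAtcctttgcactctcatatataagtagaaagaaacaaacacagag
Prf1: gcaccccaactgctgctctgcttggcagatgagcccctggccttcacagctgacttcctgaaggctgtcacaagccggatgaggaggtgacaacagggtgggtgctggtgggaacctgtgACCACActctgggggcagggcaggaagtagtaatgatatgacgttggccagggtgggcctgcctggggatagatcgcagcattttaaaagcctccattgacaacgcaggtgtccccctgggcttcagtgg
The RUNX core, searched on both strands, was present in the windows of 4 of the 6 gate genes (Ncr1, Klrb1c, Klre1 and Gzma) and in 14.0% of all 32851 promoter windows of the same length. The short T-box site was present in 1 of the 6 (Ncr1) and in 12.3% of all windows. Of 5 motifs searched in all, the longer T-box forms AGGTGTG and TCACACC and the ETS-type TTCCTG were in none of the 6 windows and in 5.1%, 3.33% and 25.7% of all windows. The letters describe the windows and show no binding.

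The 5 libraries held 9895 to 14159 barcodes, of which 9877 to 12705 passed the quality filter, while the labels state 5188 to 11934 cells loaded for each sample. Depth rose along the series, from a median of 773 UMIs over all barcodes of the sham library, before the filter, to 8558 at day 14. The doublet caller Scrublet called 3.23% to 8.56% of kept barcodes. Pairs of libraries shared 27 to 59 barcode sequences; no 2 members shared one, and 4 members had a barcode that also occurred in another library.

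NK cells were rare in every library and were seen least in sham. The sham library held 4 members, 0.0347% of its kept barcodes (exact binomial interval 0.00946 to 0.0888%). Day 1 held 13 (0.102%, 0.0545 to 0.175%), day 3 held 18 (0.182%, 0.108 to 0.288%), day 7 held 21 (0.170%, 0.105 to 0.260%) and day 14 held 33 (0.276%, 0.190 to 0.388%). The intervals of days 3, 7 and 14 lay above the sham interval and overlapped one another. Members differed in depth: their median was 659.5 UMIs in sham, 1150 at day 1, 1114.5 at day 3, 6222 at day 7 and 4547 at day 14. A gate that counts detected genes finds more cells where cells are deeper, and with every barcode thinned to 500 UMIs it kept 3, 9, 10, 6 and 12 members, or 0.0260, 0.0708, 0.101, 0.0486 and 0.100% of barcodes. At equal depth the intervals of all 5 libraries overlapped. In counts such as these, fewer cells of a type and less RNA per cell cannot be told apart.

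**Figure D1:**
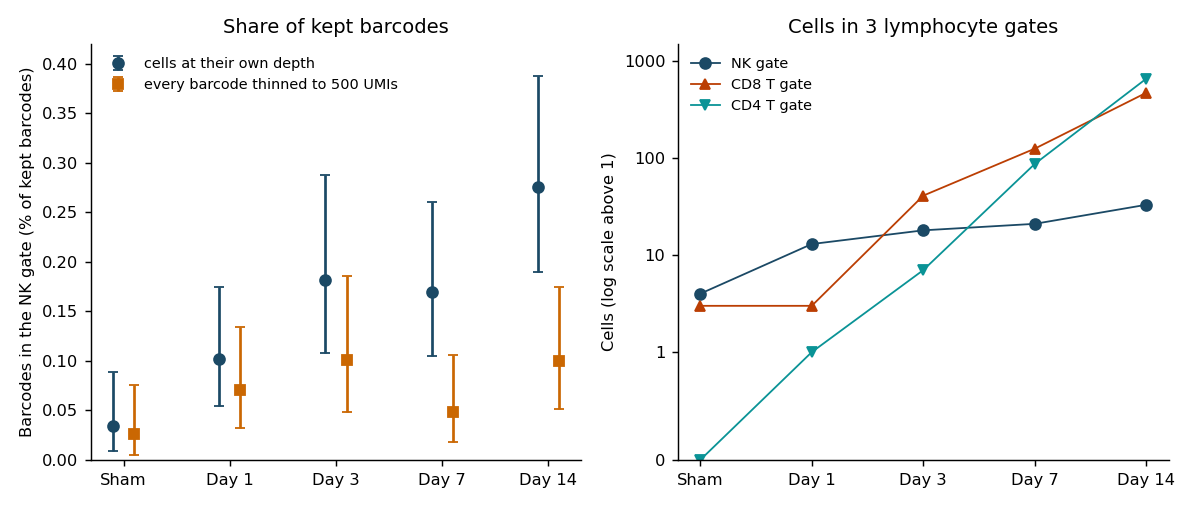
Left, the percentage of kept barcodes in the NK gate by library, at the cells' own depth (circles) and with every barcode thinned to 500 UMIs (squares), with exact 95% binomial intervals. Right, cells in the NK, CD8 T and CD4 T gates by library on an axis that is logarithmic above 1: NK cells went from 4 to 33 while CD8 T cells went from 3 to 471 and CD4 T cells from 0 to 658.

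Among lymphocytes, NK cells took the highest share at day 1 and the lowest at day 14. T cells were counted with gates that needed a Cd3 gene together with Cd8a or Cd8b1 and no Cd4 (CD8 T), or together with Cd4 and neither CD8 gene (CD4 T). NK cells were 4 of the 7 cells in the 3 gates in sham (57.1%, 18.4 to 90.1%) and 13 of 17 at day 1 (76.5%, 50.1 to 93.2%). They were 18 of 66 at day 3 (27.3%, 17.0 to 39.6%), 21 of 233 at day 7 (9.01%, 5.67 to 13.4%) and 33 of 1162 at day 14 (2.84%, 1.96 to 3.97%). The intervals of days 3, 7 and 14 did not overlap each other, and each lay below that of day 1. The gates differ in how many genes they need, and the part of depth in this order was not tested. Of barcodes with at least 2 NK gate genes, 1, 0, 6, 15 and 59 from sham to day 14 were left out for a Cd3 gene. At day 14 more were thus left out by that rule than the 33 kept.

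The gate genes described the members as follows. Of the 89, 25 had exactly 2 gate genes, 20 had 3, 23 had 4, 15 had 5 and 6 had all 6. Gzma, the granzyme A protease of cytotoxic granules, was detected in 71 members and was the most abundant. Its UMIs per cell ran from 1 to 19 in sham (median 10), from 2 to 32 at day 1 (median 14), from 2 to 20 at day 3 (median 5.5), from 0 to 110 at day 7 (median 19) and from 0 to 110 at day 14 (median 4). Every member of the 3 shallow libraries thus had Gzma, while 5 of 21 at day 7 and 13 of 33 at day 14 had none.

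The receptor genes of the gate were found in fewer cells. Klre1, a lectin-like receptor of NK cells, was detected in 66 members, Klrb1c, which encodes the NK1.1 antigen of this strain, in 62, and Ncr1 in 57. Eomes, a T-box factor of mature NK cells, was detected in 30 members and Klra8, the Ly49H receptor, in 27. By library, Ncr1 was found in 2 of 4 members in sham, 7 of 13 at day 1, 2 of 18 at day 3, 20 of 21 at day 7 and 26 of 33 at day 14. At day 3 Gzma was found in 18 of 18 members and Klra8 in 9 of 18, and that library depended most on Gzma: with Gzma left out of the gate, 7 of its 18 members remained, against 2 of 4 in sham, 12 of 13 at day 1, 20 of 21 at day 7 and 30 of 33 at day 14. With each cell thinned to 500 UMIs, Ncr1 was found on average in 30.7, 27.4, 6.6, 22.0 and 22.4% of members from sham to day 14. Day 3 was again the lowest. The members were still those chosen at full depth by a gate that uses Ncr1, so thinning does not undo that choice.

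The edge of the gate left out several kinds of barcode. In all, 180 barcodes held at least 2 gate genes; 81 were lost for a Cd3 gene, 0 for Cd79a and 10 for the C1q genes. A further 304 barcodes met every other condition with exactly 1 gate gene, which was Eomes in 219, Gzma in 40, Klre1 in 32, Klrb1c in 8, Ncr1 in 3 and Klra8 in 2. Nkg7, a granule protein of cytotoxic lymphocytes, was detected in 18 of those 304 and in 81 of the 89 members. The edge was less clear at day 3. There 11 of 77 barcodes with exactly 1 gate gene had Nkg7, against 15 of 18 members, and the 1 gate gene was Gzma in 13 of the 77.

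Genes that the gate did not use were those of cytotoxic innate lymphocytes in most members. Nkg7 was detected in 4 of 4, 13 of 13, 15 of 18, 19 of 21 and 30 of 33 members from sham to day 14. The signalling adaptors Tyrobp (DAP12) and Fcer1g were each detected in 80 members, Ccl5, a chemokine stored by cytotoxic lymphocytes, in 76, Id2, a regulator that innate lymphoid cells need, in 73, Il2rb, the shared receptor chain for interleukins 2 and 15, in 69, and Klrk1 in 67. Prf1 was detected in 53 and Gzmb, granzyme B, in 52. The T cell genes Cd4, Cd8a, Cd8b1, Cd5 and Themis had a UMI in 0 of the 89 members, a limit of 3.37% on cells with a UMI of each and not on cells that express it. Trac, the constant region of the T cell receptor alpha chain, was found in 6 members, 3 at day 7 and 3 at day 14. Other T cell genes were found more often: Trbc1, a constant region of the T cell receptor beta chain, in 50 members, Thy1 in 26, Trbc2 in 22 and the signalling adaptor gene Lat in 19.

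Some of these genes were also detected at a low share in other cells, and whether free RNA in droplets or doublets gave them was not tested. Ncr1 was found in 0 to 0.179% of oligodendrocytes per library and Prf1 in 0 to 0.098%, cells that should lack them. Among the gate genes Eomes reached the highest share there, 1.00% at day 3 and 1.12% at day 7, and Gzma reached 0.536% at day 7. Nkg7 reached 1.43% of oligodendrocytes at day 7 and 2.84% at day 14, at median depths of 9385 and 9112 UMIs, against 90.5% and 90.9% of members at 6222 and 4547 UMIs. Tyrobp, a microglial gene as well, was found in 58.7% and 47.9% of oligodendrocytes and Ccl5 in 12.1% and 20.6%, so low counts of these genes in a member say little.

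The Klra genes, which encode the Ly49 receptors, were spread unevenly over members. A Klra gene was detected in 65 of the 89 members: 4 of 4 in sham, 10 of 13 at day 1, 14 of 18 at day 3, 15 of 21 at day 7 and 22 of 33 at day 14. At least 3 different ones were found in 26 members, and no member had more than 5. Single cells that carry different sets of Ly49 receptors are a known feature of the family. Counts of some members of the family are uncertain, because in the last 500 bases of the transcripts 14.1% of 90-base stretches of Klra9, 10.2% of Klra7 and 8.52% of Klra3 also occur in a related transcript, against 0% for Klra8 and Klra4.

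**Figure D2:**
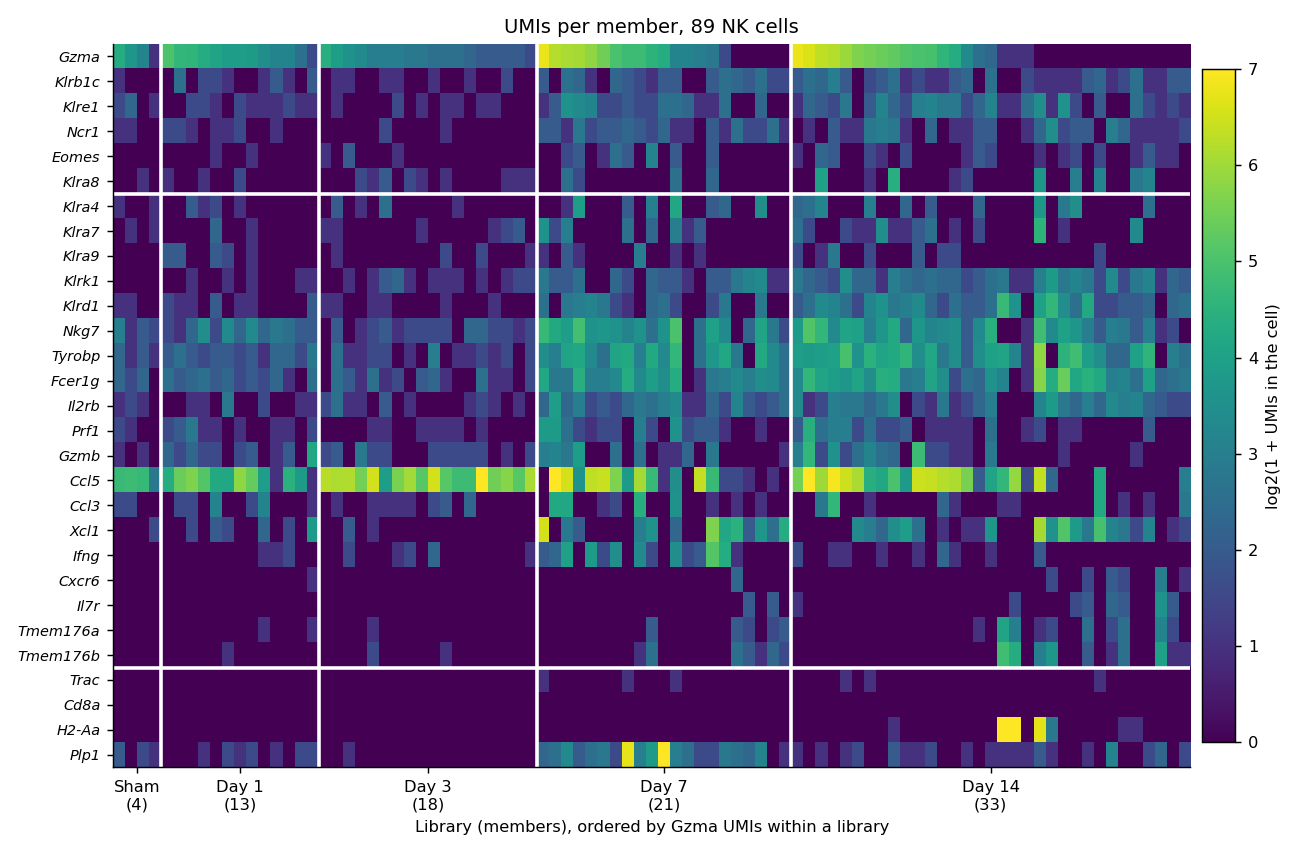
UMIs per cell on a log2(1 + UMIs) scale for 29 genes (rows) in the 89 members (columns), grouped by library and ordered by Gzma within a library; the top 6 rows are the gate genes and the bottom 4 rows are markers of T cells, antigen-presenting cells and myelin. Gzma and Ccl5 fill the 3 left blocks, and Cd8a is 0 throughout. The members without Gzma at days 7 and 14 hold most of the Cxcr6 and Il7r signal. Much of the Tmem176a and Tmem176b signal is in the same members, and much is in day 14 members with Gzma that have dendritic cell markers.

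A few members carried many transcripts of other cell types. Of the 89, 6 had at least 1% of their UMIs from the marker list of dendritic cells, microglia, oligodendrocytes or astrocytes. At day 7 they were a cell of 16419 UMIs with 197 from microglia markers and 166 from astrocyte markers, and cells of 14211 and 7624 UMIs with 460 and 123 from oligodendrocyte markers. At day 14 they were cells of 8694, 11408 and 13892 UMIs with 530, 639 and 433 from dendritic cell markers, such as the MHC class II genes. The cells of 8694 and 11408 UMIs passed the gate on 1 UMI each of Gzma and Klre1. They had 0 UMIs of Ncr1, Klrb1c, Nkg7, Il2rb and Prf1. Of the MHC class II gene H2-Aa they had 147 and 204 UMIs, and of Klrd1 11 and 26. The cell of 13892 UMIs had 5 gate genes and 28 UMIs of Nkg7. Whether the cells of 8694 and 11408 UMIs were NK cells was not tested, and day 14 counts and sums of all members include them. All 6 were deeper than the median member of their library. Some of the day 14 to day 7 ratios named below are given with and without these 6, and the others are over all members. The remaining members were 18 at day 7 and 30 at day 14.

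NK cells were next compared with CD8 T cells, the other cytotoxic lymphocytes of the same libraries. UMIs were summed per library and cell type for days 7 and 14, the libraries with at least 20 cells of both (21 and 33 NK cells, 125 and 471 CD8 T cells), and edgeR's quasi-likelihood test was fitted with the library as a block, so that 1 residual degree of freedom remained. Of 6563 genes tested outside both gates, 85 were higher in NK cells (1.30%) and 54 lower (0.823%) at a Benjamini-Hochberg adjusted p under 0.05. Levels are given as CPM, the usual scaling of a gene's summed UMIs to a common total. The number of calls was 39 and 19 with DESeq2 and 14 and 5 without the block, while all 139 genes kept their direction in both.

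The strongest differences in favour of NK cells were receptor genes. Klra9 had 104.7 and 118.5 CPM in NK cells at days 7 and 14 and 0 UMIs in CD8 T cells in both libraries, at least 147-fold higher when the 0 is set to 3 UMIs over the group (edgeR adjusted p = 2.72e-05). Klra4 had 441.2 and 402.8 CPM against 7.50 and 0 CPM, a 193-fold difference (log2 fold change 7.59 ± 0.64 SE, edgeR adjusted p = 1.04e-05). Klrb1a was 165-fold higher, Klra3 114-fold, Klrb1f 63.3-fold, Klri2, a partner chain of Klre1, 59.8-fold, Klrb1b 33.2-fold and the pseudogene Klra13-ps 47.7-fold. The other 4 of the 12 genes with the highest fold change were the kinase-like receptor gene Styk1 (108-fold), the granzyme gene Gzmc (39.3-fold), Emid1 (31.1-fold) and Nrgn, known as a neuronal gene (29.4-fold, at 44.9 and 71.1 CPM in NK cells). All 12 were higher in both libraries.

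**Figure D3:**
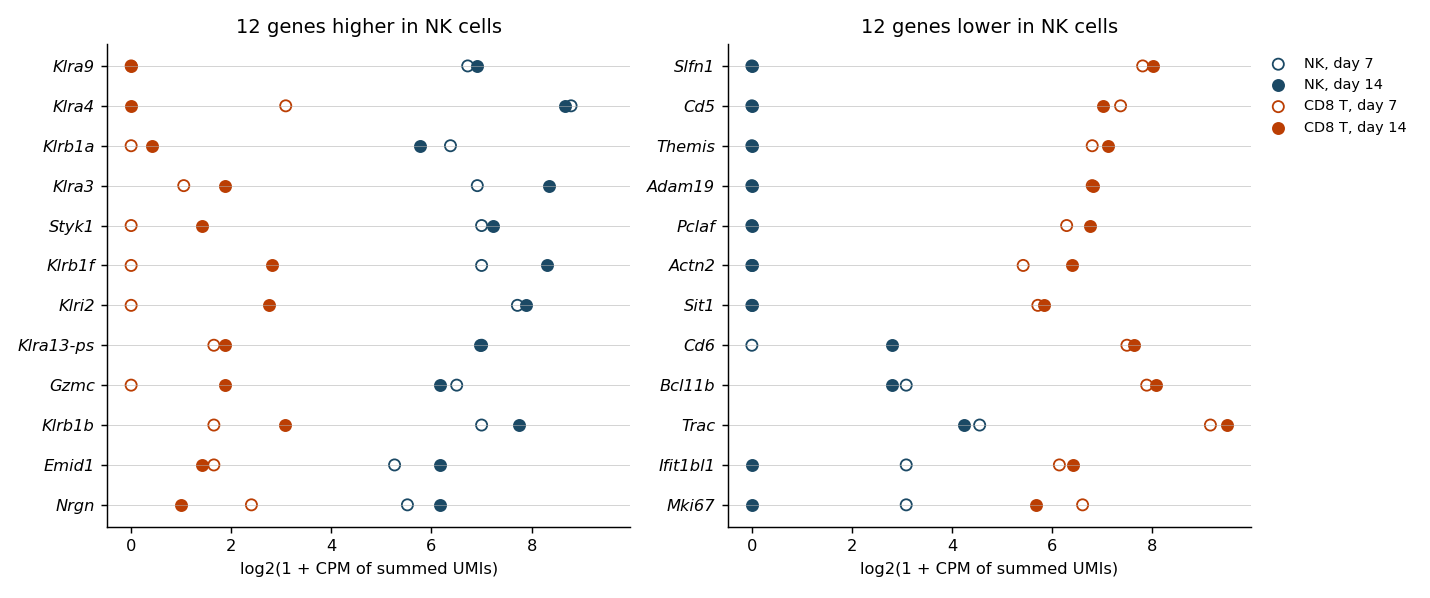
log2(1 + CPM) of summed UMIs in NK cells (blue) and CD8 T cells (orange) at day 7 (open) and day 14 (filled) for the 12 genes with the highest and the 12 with the lowest fold change among the genes called. The blue points lie right of the orange points for all 12 genes on the left and left of them for all 12 on the right, with 7 of the latter at 0 in NK cells.

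Many of these genes sit together. The NK gene complex, taken as the stretch of chromosome 6 from the start of Klrb1a to the end of Klra1 (6:128609227 to 130386874, GRCm38, 1.78 Mb), held 19 of the 6563 tested genes (0.29%). It held 14 of the 85 genes higher in NK cells and 0 of the 54 lower ones. The gate genes Klrb1c, Klre1 and Klra8 lie in the same stretch, while Ncr1 is on chromosome 7, Eomes on 9 and Gzma on 13. The 14 were Klra1, Klra3, Klra4, Klra7, Klra9, Klra13-ps, Klrb1a, Klrb1b, Klrb1f, Klrc1, Klrc2, Klrd1, Klri2 and Klrk1. Cd69, the activation antigen that lies in the same stretch, did not pass (269.2 and 272.5 CPM against 268.0 and 486.7 CPM, edgeR adjusted p = 0.634).

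By list, receptors led the difference. Of the 19 NK identity genes outside the gate that were tested, 15 were higher and 0 lower, with a median log2 fold change of 2.52 beside −0.04 over all genes tested. Of 13 activating receptors and adaptors, 7 were higher and 0 lower (median 2.20), and of 11 inhibitory receptors 7 were higher and 0 lower (median 1.94). Fcer1g had 1473 and 2535 CPM against 119.0 and 197.9 CPM, 12.6-fold higher (edgeR adjusted p = 1.22e-07), and Tyrobp was 9.99-fold higher (1.62e-07). Klrk1 was 4.84-fold higher (1.90e-04) and Klrd1 3.83-fold higher (2.43e-04). Cd244a, the 2B4 receptor, was 14.9-fold higher, Klrc2 5.74-fold, Fcgr3, the CD16 receptor for antibody, 4.59-fold and Klrc1 3.14-fold.

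The granule genes divided. Prf1 had 508.5 and 432.4 CPM in NK cells against 57.9 and 54.7 CPM in CD8 T cells, 8.26-fold higher (log2 3.05 ± 0.27 SE, edgeR adjusted p = 1.39e-05). Serpinb9 and Serpinb6b, inhibitors that protect killer cells from their own granule proteases, were 4.19-fold and 4.57-fold higher. Gzmk, granzyme K, was 12.9-fold lower (14.96 and 11.85 CPM against 126.5 and 213.0 CPM, edgeR adjusted p = 9.39e-04). Over the list 4 of 15 genes were higher and 1 lower. Gzmb had 433.7 and 645.6 CPM against 257.3 and 311.6 CPM and did not pass (edgeR adjusted p = 0.0705), nor did Nkg7, at 1817 and 1913 CPM against 1531 and 1888 CPM (0.843).

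Among secreted factors 3 of 10 passed, all higher in NK cells. Xcl1, a chemokine that attracts cross-presenting dendritic cells, had 1870 and 1481 CPM against 173.7 and 229.4 CPM, 8.25-fold higher (edgeR adjusted p = 2.83e-06). Ccl3 was 4.54-fold and Ccl4 2.30-fold higher. Ccl5 did not pass (5123 and 7594 CPM against 4258 and 7664 CPM, edgeR adjusted p = 0.741), and both cell types were higher in it at day 14. Ifng, the interferon gamma gene, had 949.8 and 88.9 CPM against 262.7 and 89.6 CPM (edgeR adjusted p = 0.165), so that NK cells were higher at day 7 and level with CD8 T cells at day 14.

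Cytokine receptors, homing genes and factors differed at few genes. Of 17 receptors and STATs, 3 were higher: Il2rb (5.09-fold), Il12rb2 (8.36-fold) and Il18rap (3.71-fold), chains of the receptors for interleukins 15, 12 and 18. Among trafficking genes Itgam, the integrin chain CD11b, was 5.38-fold higher. Cxcr6, a receptor of tissue-resident lymphocytes, had 29.9 and 100.7 CPM against 354.9 and 565.2 CPM, 7.12-fold lower (edgeR adjusted p = 2.27e-04). Of 15 transcription factors, Irf8 (7.70-fold) and Bhlhe40 (2.30-fold) were higher, and Tbx21, the T-bet gene, did not pass (0.354).

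The genes lower in NK cells included those of the T lineage, of division and of the interferon response. Slfn1, Cd5, Themis, Adam19, Pclaf, Actn2 and Sit1 had 0 UMIs in NK cells and were at least 25.3, 13.8, 13.3, 11.2, 10.0, 7.39 and 5.54-fold lower with the same setting. Cd6 was 55.8-fold lower, Bcl11b, a T lineage factor, 37.7-fold and Trac 32.6-fold (22.4 and 17.8 CPM against 571.5 and 720.1 CPM, edgeR adjusted p = 3.36e-06). Of 9 T cell markers tested 0 were higher and 7 lower. Trbc1 did not pass (299.1 and 408.7 CPM against 328.1 and 495.4 CPM, edgeR adjusted p = 0.834), while Trbc2 was 9.06-fold and Lat 6.11-fold lower. The remaining 2 of the 12 lowest were Ifit1bl1 (22.8-fold) and Mki67, a marker of dividing cells (20.9-fold). Of 10 cell cycle genes 0 were higher and 6 lower (median log2 −2.42), and none of the list was called with DESeq2 or without the block, where the medians were −3.00 and −2.42; with at least 3 gate genes 2 were lower. Mki67 was found in 1 of 54 NK cells and 48 of 596 CD8 T cells.

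Of 12 interferon response genes 0 were higher and 6 lower (median log2 −1.64). Ifi27l2a had 276.7 and 189.5 CPM in NK cells against 2897 and 2808 CPM, 12.5-fold lower (edgeR adjusted p = 1.22e-07). Isg15 was 4.12-fold, Ifit1 5.37-fold, Ifit3 3.71-fold and Bst2 2.61-fold lower. Ly6a and Ly6c2, surface antigens that activated T cells carry, were 8.42-fold and 13.5-fold lower. Of 11 glycolysis genes and of 8 genes of m6A methylation and SOCS feedback, 0 passed in either direction.

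Among immediate early and heat shock genes, 2 of 18 were higher, Jun (1.76-fold) and Btg2 (1.87-fold), and 0 lower. Neither was called with DESeq2, without the block, with at least 3 gate genes, with 0 UMIs of Trac, Cd8a, Cd8b1 and Cd4, or with 3 libraries (edgeR adjusted p = 0.119 for Jun and 0.105 for Btg2). Of the 6 markers each of microglia, astrocytes and oligodendrocytes tested, 0 passed. With the library as a block, these p-values rest on how the difference between NK and CD8 T cells varied between 2 libraries. They do not measure the spread between animals. In members under 1% of other types' markers, 134 of 137 of the calls that could be measured were called again.

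Days 7 and 14 were the libraries with at least 20 members, and their summed UMIs (133718 and 168825) were compared as ratios with exact conditional intervals and no test. Of 8179 genes at a mean of at least 10 CPM outside the gate, 1442 were at least 2-fold higher at day 14 (17.6%) and 1955 at least 2-fold lower (23.9%), with a median log2 ratio of −0.01. Without the 6 members with other types' markers, 1633 of 7792 were higher (21%) and 1676 lower (21.5%), with a median of 0.09. Members at day 7 had a median of 4.90% mitochondrial UMIs and 4.15% of UMIs from Gm42418, a transcript that overlaps ribosomal RNA, against 1.00% and 0.166% at day 14.

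Among the 11 effector cytokine and chemokine genes measured, Ifng differed most between days 7 and 14. It was detected in 0 of 4 members in sham, 3 of 13 at day 1, 5 of 18 at day 3, 14 of 21 at day 7 and 9 of 33 at day 14. At day 7 cells held up to 34 UMIs, with a median of 2, and at day 14 up to 4, with a median of 0. The sums were 127 and 15 UMIs, or 949.8 and 88.9 CPM, a log2 ratio of −3.42 (−4.30 to −2.64), and it was −3.88 (−4.87 to −3.02) without the 6 members. Thinned to 500 UMIs, it was found in 11.7% of members at day 1, 16.7% at day 3, 35.1% at day 7 and 4.45% at day 14. In CD8 T cells of the same libraries the ratio was −1.55 (−1.81 to −1.30), and the difference between the cell types was not tested.

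Immediate early and heat shock genes were also lower at day 14. Of 18 genes 0 were at least 2-fold higher and 10 at least 2-fold lower, with a median log2 ratio of −1.15, and without the 6 members 0 and 12 of 18, with a median of −1.77. Hspa1a, an inducible heat shock protein gene, had 49 UMIs in 10 cells at day 7 and 3 in 2 cells at day 14 (log2 −4.37, −6.69 to −2.73, and −6.02 without the 6). Hsp90aa1 went from 942.3 to 207.3 CPM (−2.18, −2.77 to −1.63) and Fos, an early response factor, from 837.6 to 379.1 CPM (−1.14, −1.61 to −0.69, and −2.04 without the 6). Junb and Btg2, of the same list, had ratios of 0.23 and 0.18, and of 0.03 and −0.27 without the 6. In CD8 T cells 0 of the 18 were at least 2-fold higher and 10 at least 2-fold lower, with a median of −1.22, beside 3.10% and 6.14% of all 8342 genes measured there. The list took 1.21% of UMIs in NK cells at day 7 and 0.784% at day 14, and 1.20%, 1.14% and 0.842% in sham and at days 1 and 3. Between days 7 and 14 the list was lower together with Ifng, and its part in the Ifng result was not tested.

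Several receptor genes were higher at day 14. Klrd1, the CD94 chain, had 60 UMIs in 13 of 21 members at day 7 and 227 in 31 of 33 at day 14, or 448.7 and 1345 CPM (log2 1.58, 1.17 to 2.02), and 1.31 without the 6 members. Its partners Klrc1 (NKG2A, inhibitory) and Klrc2 (NKG2C, activating) had ratios of 1.57 (0.63 to 2.63) and 1.85 (0.79 to 3.08). Of 10 inhibitory receptor genes 6 were at least 2-fold higher and 0 lower, with a median of 1.31, and they included the Ly49 gene Klra3 (1.45, 0.62 to 2.35). Of 14 activating receptors and adaptors 4 were at least 2-fold higher and 1 lower (median 0.70), and 3 and 1 without the 6. Over all genes 17.6% were higher and 23.9% lower, and 21% and 21.5% without the 6. The count higher in the activating list without the 6 was thus near the share of all genes. Klrb1f, an activating receptor gene, had a ratio of 1.30 (0.49 to 2.19). Thinned to 500 UMIs, Klrd1 was found in 19.5% of members at day 7 and 44.6% at day 14. In CD8 T cells Klrd1 had a ratio of 1.08 (0.82 to 1.36) and Klrc1 of 1.04 (0.52 to 1.61).

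Some receptors had ratios nearer 0. Klra4 had a ratio of −0.13 (−0.66 to 0.40), Klra9 of 0.18 (−0.88 to 1.28), Il2rb 717.9 and 894.4 CPM and Klrk1 486.1 and 924.0 CPM (0.93, 0.50 to 1.37). Cd244a (1.75, 0.61 to 3.07) and Cd7 (1.97, 1.25 to 2.77), a surface antigen of NK and T cells, were higher. Of 20 NK identity genes 6 were at least 2-fold higher and 1 lower (median 0.64), beside 17.6% and 23.9% of all genes.

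Several killing and chemokine genes were closer between the days. Prf1 had 508.5 and 432.4 CPM (−0.23, −0.73 to 0.26), Nkg7 1817 and 1913 CPM (0.07, −0.17 to 0.32) and Ccl4 1503 and 1528 CPM (0.02, −0.25 to 0.30). Ccl5 had 5123 and 7594 CPM (0.57 in all members, 0.30 without the 6). Xcl1 had 250 UMIs at both days, 1870 and 1481 CPM, of which 66 UMIs at day 14 were in 1 member with dendritic cell markers. Without the 6 it had 239 and 184 UMIs, 2504 and 1365 CPM (−0.88, −1.16 to −0.59). Of those 239 at day 7, 93 were in 1 member and 49 in another, so this ratio rests in large part on single cells. Ccl3 had 538.4 and 379.1 CPM (−0.51 in all members, and −0.71, −1.23 to −0.20, without the 6). Fasl, the death ligand gene, was higher (2.04, 0.64 to 3.78), with 5 UMIs at day 7 and 26 at day 14. Of 11 glycolysis genes 0 were at least 2-fold different in either direction.

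Genes of maturation and position split by direction. Klf2, a factor that keeps circulating lymphocytes in circulation, went from 628.2 to 254.7 CPM (−1.30, −1.87 to −0.76), and in CD8 T cells from 417.1 to 103.3 CPM. Zeb2, a factor of terminal NK maturation, had a ratio of −1.38 (−2.38 to −0.45) in all members and of −1.08 (−2.27 to 0.05), an interval that includes 0, without the 6. The chemokine receptor gene Ccr2 was higher (1.18, 0.57 to 1.83, and 1.63 without the 6). So were Il7r, the interleukin 7 receptor (1.94, 0.64 to 3.50), Ltb, lymphotoxin beta (1.28, 0.78 to 1.81), and the integrin gene Itga1 (1.60, 0.27 to 3.19). Without the 6 the ratio of Ltb was 0.995 (0.45 to 1.57), just under 2-fold. Of 10 genes of immature NK cells, among them Il7r, Ltb and Emb, 5 were at least 2-fold higher and 0 lower, and 3 and 0 without the 6. Of 11 genes of mature NK cells 4 were higher and 3 lower, with the same counts without the 6. Of 9 ILC1 and residency genes 5 were at least 2-fold higher and 2 lower, and without the 6 members 3 of 10 were higher and 1 lower. Over all genes 17.6% were higher and 23.9% lower, and 21% and 21.5% without the 6.

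**Figure D4:**
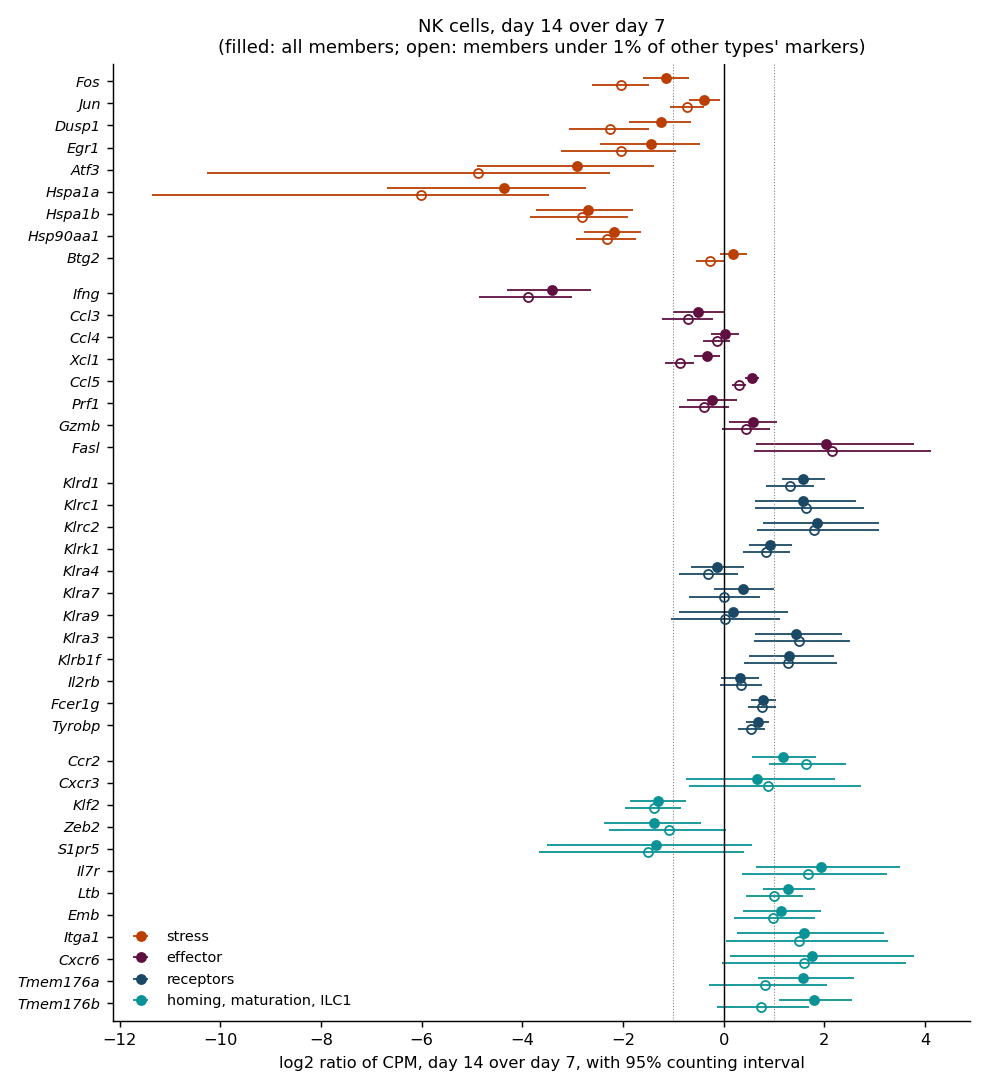
log2 ratio of CPM at day 14 over day 7 in NK cells with 95% counting intervals, for genes of 4 groups taken from the lists; filled points are all members and open points the members under 1% of other types' markers. Ifng and the stress genes shown except Btg2 lie left of 0 in all members, Klrd1, Klrc1 and Klrc2 lie right of the dotted line of a 2-fold difference, and Klra4, Klra9, Ccl4 and Prf1 lie near 0.

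The most extreme ratios included many genes known from other cell types. Over all members, the 12 lowest at day 14, each at 0 UMIs there, were Cpe, Plpp3, Bcan, Pla2g7, Scg3, Tspan2, Cspg5, Slc4a4, Htra1, Ntsr2, Ugt8a and Gja1, many of them known from astrocytes and oligodendrocytes. The 12 highest were H2-Aa, Cxcl16, Ccr7, Ighg2b, Alox5ap, Csf2rb, H2-Oa, Igbp1, Mcemp1, Tbc1d4, Igha and Trib1, with 0 UMIs at day 7. H2-Aa, an MHC class II gene, had 463 UMIs in 7 members at day 14, of which 9 UMIs were in members under 1% of other types' markers. Of the astrocyte and the oligodendrocyte markers 6 of 6 were at least 2-fold lower at day 14, of the microglia markers 5 of 6, and of the dendritic cell markers 4 of 4 were higher. Astrocyte markers took 0.165% of members' UMIs at day 7 and 0.00711% at day 14, and oligodendrocyte markers 0.530% and 0.0533%.

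In members under 1% of other types' markers, the extreme genes had few UMIs. Clu, a secreted chaperone that astrocytes make, had 35 UMIs in 13 of 18 members at day 7 and 0 at day 14, at least 16.5-fold lower, and it was found in 77.6% of CD8 T cells at day 7 and 9.55% at day 14. Cpe was found in 77.8% of members and 74.4% of CD8 T cells at day 7, and in 0% and 8.28% at day 14. Ighg2b, an antibody heavy chain gene, was found in 46.7% of members, 52.2% of CD8 T cells and 63.9% of oligodendrocytes at day 14, and in none of these cells at day 7. Ighg2b thus appeared in cells that should not express it, and Clu and Cpe were lower at day 14 in CD8 T cells too. Trdv4, a variable segment of the T cell receptor delta chain, had 8 UMIs in 4 members at day 7 and 0 at day 14, and was found in 0.800% and 0.425% of CD8 T cells. The others of the 24 (Lrrc8c, Sesn3, Igbp1, Auh, Bcl9l, Pttg1, Smarcad1, Nr2c2ap, Pmpca, Irak2 and Il27ra higher; Cald1, Ap1s2, Hspb1, Slc25a39, Cdkn1a, Rgs4, Uap1, Myl9 and Toe1 lower) had 7 to 15 UMIs on 1 day and 0 on the other. Rgs4 and Myl9 had their 7 UMIs in 1 cell each and Cald1 its 13 in 2 cells, while Igbp1 was found in 40% of the day 14 members left without the 6 and in 35.2% and 38.2% of CD8 T cells at days 7 and 14.

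Members at days 7 and 14 without Gzma were of more than 1 kind. This split was chosen after the values had been seen and is given without a test, over the 48 members under 1% of other types' markers. Gzma was detected in 31 (13 at day 7 and 18 at day 14). Of the other 17, 8 (1 and 7) had Eomes or a Klra gene, and 9 (4 and 5) had neither. The 9 had a median of 5923.5 UMIs at day 7 and 4982 at day 14, and those with Gzma 5987 and 4231.5, so the sets were of like depth.

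In the 9 cells without Gzma, Eomes and Klra genes, the genes of the gate and of killing did not all go the same way. Ncr1 and Klrb1c were detected in 9 of 9, which the split nearly fixes, since the gate then needs 2 of Ncr1, Klrb1c and Klre1, and Il2rb and Klrk1, which the gate does not use, also in 9 of 9. The third, Klre1, was detected in 2 of 9 (41.1 CPM) and in 30 of 31 cells with Gzma (945.7 CPM). Prf1 had a UMI in 0 of 9, a limit of 33.3% on cells with a UMI and not on cells that express it, and in 29 of 31 cells with Gzma. Nkg7 was detected in 7 of 9 (843.5 CPM) and 30 of 31 (2944 CPM). Gzmb was detected in 1 of 9 against 24 of 31, Ifng in 1 of 9 against 20 of 31, and Irf8 in 2 of 9 against 26 of 31. Ccl5 was at 308.6 CPM against 12310 CPM. Some of these genes were also seldom found in the 8 cells without Gzma but with Eomes or a Klra gene. There Ifng had a UMI in 0 of 8, Gzmb in 2 of 8 and Ccl5 in 1 of 8 (438.4 CPM). Others were found more often in the 8: Prf1 in 4, Irf8 in 6, and Klre1 and Nkg7 in 8 of 8.

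Some genes of ILC1s and of residency were found chiefly in the same 9 cells. Tmem176b was detected in 9 of 9 (740.6 CPM) and in 1 of 31 cells with Gzma (7.11 CPM), and Tmem176a, its neighbour and relative, in 8 of 9 and 1 of 31. Cxcr6 was detected in 6 of 9 and 0 of 31 (a limit of 9.68% on cells with a UMI), Il7r in 5 of 9 and 1 of 31, and Rora, a factor of innate lymphoid cells, in 6 of 9 and 3 of 31. Of the immature NK list, Ltb was detected in 9 of 9 and 14 of 31, and Emb in 8 of 9 and 10 of 31. Cd7, of that list too, was detected in 7 of 9 and 17 of 31. The integrin gene Itga1, of the ILC1 and residency list, was in 4 of 9 (123.4 CPM) and 9 of 31 (120.9 CPM). Xcl1 was at 1666 CPM in the 9 and 1728 CPM in the 31. In the 8 cells without Gzma but with Eomes or a Klra gene, Tmem176b was detected in 3, Cxcr6 in 1, Il7r in 3 and Prf1 in 4. These shares lay between those of the other sets, but 1 cell held 15 of the 17 Tmem176b UMIs, 11 of the 16 of Il7r and all 7 of Cxcr6. Not all levels lay between: Il7r was at 389.7 CPM in the 8 and 329.2 CPM in the 9, and Xcl1 was at 2411 CPM in the 8. Ltb and Cd7 were not particular to the 9. In the 8, Ltb was detected in 7 (1169 CPM, against 1090 CPM in the 9) and Cd7 in 6 (828.1 against 740.6 CPM). Emb was detected in 5 of the 8 (438.4 against 617.2 CPM).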

How the data were processed

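The deposited matrices hold UMI counts per gene and barcode, written by Cell Ranger 4.0.0, per the file headers; builds GRCm38 and mm10, Seurat 3.2.0 and STAR 2.5.37 come, without roles, from the submitters' processing notes. The members and gene lists were chosen with earlier results of these data known. From the counts, barcodes were filtered and gated as described, and NK and CD8 T sums (21 and 33, 125 and 471 cells) were tested with edgeR 4.0.16 (TMM, filterByExpr, glmQLFit and glmQLFTest, library as a block, Benjamini-Hochberg adjusted p under 0.05, all genes); DESeq2 1.42.0 was an alternative. Ratios between days are of CPM, with exact conditional binomial intervals; shares have exact Clopper-Pearson intervals. A fold against 0 uses a floor of 3 UMIs over the group. Named are examples from 28 lists and, by fold, the 12 most extreme genes on each side at 50 CPM or more; ribosomal, mitochondrial and Gm or Rik genes are counted, not named. Doublets called by Scrublet were kept, with their removal as an alternative. The 1% limit on other types' markers, in members and in CD8 T cells for the edgeR fit, was chosen after seeing the data. The edgeR script was tested on simulated counts. Positions are of GENCODE M21 (GRCm38); promoters are of RefSeq. The depth of each member limits which genes can be detected. Some genes of the lists are not reported here.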

Additional observations from a re-analysis of the deposited data

How the results depend on the processing

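The share of all kept barcodes in the gate, 0.152%, was 0.110% with at least 3 gate genes, 0.122% without Gzma and 0.0685% at 500 UMIs. By library, day 3 gave 0.0709% with at least 3 gate genes or without Gzma and 0.101% thinned, day 7 0.0486% and day 14 0.100% thinned. At 50 CPM or more, 311 genes were at least 2-fold higher and 319 lower at day 14 than at day 7. Against 85 higher and 54 lower in NK than in CD8 T cells, there were 39 and 19 with DESeq2, 14 and 5 without the library block, 44 and 31 with at least 3 gate genes, 184 and 168 without Scrublet doublets, 18 and 8 thinned, and 97 and 193 without a filter. With settings chosen after seeing the data there were 173 and 153 under 1% of other types' markers and 54 and 31 with 3 libraries (at least 15 cells of both types); leaving out day 7 or day 14 of these gave 25 to 26 higher and 10 to 27 lower. Leaving out 1 of the 2 main libraries leaves no residual degrees of freedom and was not run. The day 14 to day 7 ratio reversed for Cd209a with the mean of the cells' own CPM (−0.041) and for Cldn11 without Scrublet doublets (0.29) and under 1% (0.72), and the difference from CD8 T cells reversed for Hbb-bs in the same sets (0.30 in both). Of 86 named day ratios, 27 moved beyond their counting interval with the mean of the cells' own CPM, 20 under 1%, 12 without doublets, 8 without Gzma and 6 with at least 3 gate genes. The cause was not tested. No paired analysis was possible because each group is 1 library; the library block above pairs cell types. Depth limits all genes near 1 UMI per cell, and the early libraries to counts of cells.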
